A study of Mus musculus with 2 samples.

Results

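The circadian clock genes *Per1*, *Per2*, *Arntl*, *Clock*, *Cry1*, *Cry2*, *Nr1d1*, *Nr1d2*, *Dbp* and *Tef* were followed in RNA-seq of the mouse hippocampus. They were taken from the deposited gene table as the rows whose symbol equals one of these names. All 10 were found, each in a single row, among 55573 gene rows in all. The series holds 1 library from a *CDK5f/f* mouse sample of the strain C57BL/6, labelled untreated (the control library), and 1 from a *Cdh5-CreERT2;CDK5f/f* sample of the same strain, labelled Tamoxifen (the mutant library). Both carry the loxP-flanked *CDK5* allele. *Cdh5-CreERT2* makes a tamoxifen-inducible Cre recombinase under an endothelial promoter, so the gene should be lost in endothelial cells only, while the RNA came from all cells of the tissue. How many mice went into each sample, their age and the time of day at which the tissue was taken are not given in the sources used here. Because each genotype is 1 library, the differences carry no replicate error and no p-value, and genotype, treatment and time of day cannot be told apart.

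The clock of mammalian cells is a loop of transcription that runs through about a day. CLOCK and BMAL1, the product of *Arntl*, pair up on E-box sequences and drive the *Per* and *Cry* genes, whose proteins then shut CLOCK and BMAL1 down. A second loop joins at *Arntl*: the nuclear receptors REV-ERB alpha and beta, encoded by *Nr1d1* and *Nr1d2*, repress it, and the ROR receptors activate it through the same elements. DBP and TEF are PAR bZIP factors that carry the rhythm to output genes through D-box sequences. In mouse tissues outside the suprachiasmatic nucleus, the master clock of the hypothalamus, *Arntl*, *Clock* and *Cry1* transcripts peak between the dark phase and the early light phase. Transcripts of *Nr1d1*, *Nr1d2*, *Dbp*, *Tef*, *Per1*, *Per2* and *Cry2* peak between the middle of the light phase and the early dark phase, with shallow rhythms for *Cry2* and *Tef*. These groups are called night-to-morning and day-to-evening here, and they come from general knowledge of the clock, not from these libraries.

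The libraries held 19451827 (control) and 18900847 (mutant) counts assigned to genes. *Cdk5* itself had 1261 and 1257 counts, which in RNA of all cell types does not check its loss in endothelial cells. Markers of neurons, astrocytes, oligodendrocytes, microglia, endothelial cells and dentate granule cells were within 1.5-fold between the libraries, 4 of 4 in each list. So were most genes, as 3.64% of all genes tested were past it higher and 3.16% lower. Of the endothelial markers, *Cldn5* had a ratio of 0.708 (CI 0.629 to 0.796), and the intervals of the other 3 included 1. Of the dentate markers, *Prox1* was at 0.783 (CI 0.732 to 0.836) and *Dsp* at 1.24 (CI 1.13 to 1.35), and 2 intervals included 1. The 4 markers of CA1 pyramidal cells, all present in both libraries, did not go one way. *Wfs1* was past 1.5-fold higher in the mutant library, as were 3.64% of all genes tested. *Fibcd1* and *Pou3f1* were lower there (ratios of library-scaled counts 0.842 and 0.785), and *Mpped1* was at 1.02. The samples did differ in other ways. *Xist* had 15070 and 34 counts and the Y-linked gene *Ddx3y* had 0 and 771, with *Eif2s3y*, *Kdm5d* and *Uty* likewise past 1.5-fold higher in the mutant library, so the sex of the samples also cannot be told apart from genotype. All 7 markers of the choroid plexus, a secretory epithelium of the ventricles (*Ttr*, *Kcnj13*, *Folr1*, *Clic6*, *Enpp2*, *Otx2* and *Kl*), were past 1.5-fold higher in the mutant library, where their FPKM summed to 3856 against 169.55 in the control library. The pituitary hormone genes *Prl* and *Gh* had 236 and 70 control counts and no mutant counts. *Cga*, also on the pituitary list, had 9 and 0 counts, whereas *Pomc* had 13 and 18. Of 7 markers of the suprachiasmatic nucleus, 3 reached 1 FPKM in either library. They were *Vip* (345 and 381 counts) and *Rorb*, which other neurons also express, and *Avp* (13 and 10), whereas *Six6* and *Nms* had 0 counts in both libraries and *Prok2* 2 and 6. The part of these differences in the clock gene values was not tested, and in RNA of whole tissue fewer cells of a type and less RNA per cell cannot be told apart.

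Elements through which the clock acts are shown for 4 of the genes: *Arntl*, *Cry1* and *Nr1d1*, which were among those that differed most between the libraries, and *Per1*, a textbook E-box gene. Promoter windows of RefSeq (GRCm38.p6), from 250 bases before to 50 bases after an annotated start, were matched by symbol for 9 of the 10 genes, all but *Per2*, with 14 windows in all. They were searched on both strands for the E-box CACGTG, the related E'-box CACGTT, the ROR elements GTAGGTCA and GTAGGTTA, the D-box as TTACGTAA or TTATGTAA, and the cAMP response element TGACGTCA. None of these motifs overlaps another in the stretches below, which read 5' to 3' on the strand of the gene, with the motif on either strand in capitals.
Arntl: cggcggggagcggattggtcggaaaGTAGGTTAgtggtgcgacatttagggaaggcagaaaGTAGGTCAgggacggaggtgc
Cry1: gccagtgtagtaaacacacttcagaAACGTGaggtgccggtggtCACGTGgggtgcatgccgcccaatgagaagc
Nr1d1: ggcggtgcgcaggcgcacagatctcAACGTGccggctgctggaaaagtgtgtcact
Per1: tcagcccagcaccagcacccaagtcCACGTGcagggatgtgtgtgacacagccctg

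The *Arntl* stretch, chr7:113207479-113207560 on the plus strand, holds both ROR elements, at positions -7 and 30 from the RefSeq start. *Arntl* was the only one of the 9 genes with a ROR element, in 2 of the 14 windows, and 0.925% of all 32851 windows in the table hold one. The *Cry1* stretch, chr10:85185084-85185158 on the minus strand, holds an E-box at position -60 and an E'-box, written as its reverse complement, at -79. The *Nr1d1* stretch, chr11:98775375-98775430 on the minus strand, has an E'-box at -28, and the *Per1* stretch, chr11:69098758-69098813 on the plus strand, an E-box at -166 from a start inside the annotated gene. An E-box was found in 4 of the 14 windows (of *Cry1*, *Per1* and *Tef*) and an E'-box in 3 of the 14 (of *Cry1*, *Cry2* and *Nr1d1*), where 7.15% and 4.68% of all windows hold one. No window of these genes held the D-box or the cAMP response element as spelled here, which 1.06% and 1.79% of all windows hold. A match is a description of the letters only.

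None of the 10 clock genes was past 1.5-fold in either direction. Differences were scored as the mutant-over-control log2 ratio of FPKM + 1, and by that measure 3.64% of the 14769 genes that reached 1 FPKM in either library were past 1.5-fold higher and 3.16% were past it lower. FPKM is the count scaled to exonic length and to the library total. The log2 ratios of the clock genes ran from -0.37 for *Arntl* to 0.26 for *Per2*, with a median of -0.07, against a median of 0.00 over all genes tested. Each gene was also given its ratio of library-scaled counts, with an exact 95% counting interval (CI, Clopper-Pearson) that says nothing of the spread between mice. By that interval *Per2* and *Cry1* lay above 1, *Arntl*, *Nr1d1*, *Nr1d2* and *Tef* lay below 1, and *Per1*, *Clock*, *Cry2* and *Dbp* included 1. Counting intervals lay above 1 for 2 of the 10 genes against 19.7% of all genes tested, and below 1 for 4 of the 10 against 17.9%.

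**Figure D1:**
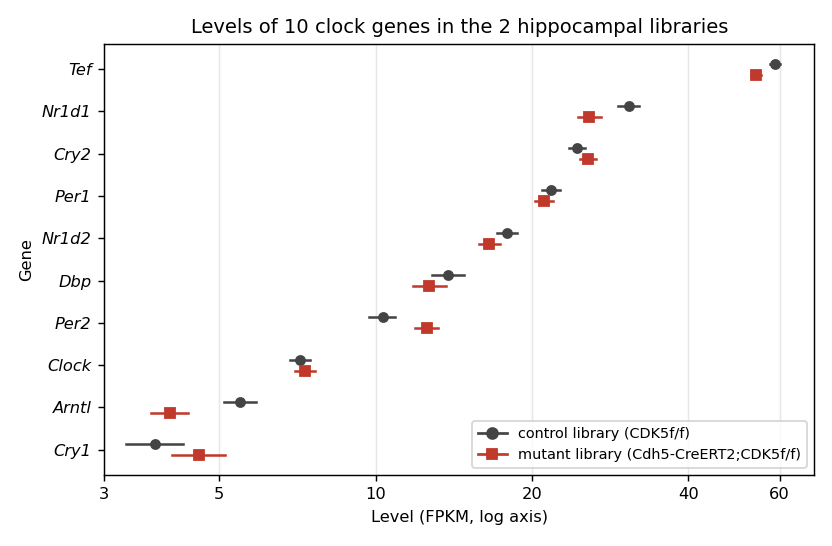
Levels of the 10 clock genes in FPKM on a log axis, for the control library (grey circles) and the mutant library (red squares), with bars for the exact 95% counting interval of each. *Tef* was highest in both libraries, and the bars of the libraries are apart for *Arntl*, *Per2*, *Nr1d1* and *Tef*.

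Of the activators, *Arntl* was lower in the mutant library and *Clock* had an interval that included 1. *Arntl* (ENSMUSG00000055116, chr7:113207465-113314126, plus strand) had 803 control and 570 mutant counts, FPKM values of 5.49 (CI 5.11 to 5.88) and 4.01 (3.69 to 4.35). The ratio was 0.731 (CI 0.655 to 0.814), the farthest from 1 among the 10 genes, and its lower bound, unlike the ratio itself, is past 1.5-fold. On the log2 scale 13.7% of all genes tested were as far from 0 as *Arntl*, and 6.18% were lower than it. *Clock* (ENSMUSG00000029238, chr5:76209868-76304792, minus strand) had 1908 and 1899 counts, FPKM values of 7.15 and 7.32, and a ratio of 1.02 (CI 0.961 to 1.09). Relative to *Arntl* in the same library, *Clock* stood at 1.30 in the control and 1.83 in the mutant, a comparison chosen after the values were seen.

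The period genes differed from each other. *Per2* (ENSMUSG00000055866, chr1:91415982-91459324, minus strand) had 1174 control and 1387 mutant counts, FPKM values of 10.3 (CI 9.73 to 10.9) and 12.5 (11.9 to 13.2). Its ratio of 1.22 (CI 1.12 to 1.32) was the highest of the 10, and 22.2% of all genes tested were as far from 0 on the log2 scale. *Per1* (ENSMUSG00000020893, chr11:69095217-69109960, plus strand), which neuronal activity and glucocorticoids also induce, had 2384 and 2245 counts and FPKM values of 21.8 and 21.1. Its ratio was 0.969 (CI 0.914 to 1.03), so a difference of *Per1* was not detectable at this depth. *Per2* stood at 0.474 times the FPKM of *Per1* in the control and 0.594 times in the mutant, a change whose CI ran from 1.14 to 1.38, for a pair chosen after the values were seen.

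Of the cryptochrome genes, whose proteins are the strongest repressors of CLOCK and BMAL1, *Cry1* was higher in the mutant library and *Cry2* had an interval that included 1. *Cry1* (ENSMUSG00000020038, chr10:85131700-85185064, minus strand) had the fewest counts of the 10 genes, 244 and 288, FPKM values of 3.76 and 4.56. Its ratio of 1.21 had the widest interval, 1.02 to 1.45, with a lower bound close to 1. *Cry2* (ENSMUSG00000068742, chr2:92403646-92434043, minus strand) had 3008 and 3062 counts, FPKM values of 24.5 and 25.6, and a ratio of 1.05 (CI 0.996 to 1.10).

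Both genes of the REV-ERB receptors had lower counts in the mutant library, as did *Arntl*, the gene they repress. *Nr1d1* (ENSMUSG00000020889, chr11:98767932-98775333, minus strand) had 1837 and 1499 counts, FPKM values of 30.7 (CI 29.3 to 32.1) and 25.8 (24.5 to 27.1). The ratio was 0.840 (CI 0.784 to 0.900). *Nr1d2* (ENSMUSG00000021775, chr14:18204054-18239127, minus strand) had 1883 and 1693 counts, FPKM values of 17.9 and 16.6, and a ratio of 0.925 (CI 0.866 to 0.989). Of the exonic bases of *Nr1d1*, 8.55% also belong to *Thra*, the thyroid hormone receptor alpha gene on the opposite strand. *Thra* had 16084 and 14474 counts. The sources used here do not say whether counting used strand, so reads in the shared bases may be assigned to either gene or to none.

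The output factors *Tef* and *Dbp* had the same ratio within 0.01. *Tef* (ENSMUSG00000022389, chr15:81802421-81826863, plus strand) had the most counts of the 10 genes, 8994 and 8031, FPKM values of 58.8 and 54.0, and a ratio of 0.919 (CI 0.892 to 0.947). *Dbp* (ENSMUSG00000059824, chr7:45705088-45710203, plus strand) had 803 and 718 counts, FPKM values of 13.8 and 12.7, and a ratio of 0.920 (CI 0.831 to 1.02). The interval includes 1 for *Dbp* and not for *Tef*, whose counts are higher. Of the exonic bases of *Dbp*, 18.0% are shared with *Sphk2*, a sphingosine kinase gene on the opposite strand with 659 and 776 counts, the largest such share among the 10 genes, so its count is uncertain. Exonic overlaps of *Cry2*, *Tef* and *Arntl* with antisense genes covered 4.67%, 2.45% and 0.439% of their bases, and *Per1*, *Per2*, *Cry1* and *Nr1d2* overlap no gene in the annotation.

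**Figure D2:**
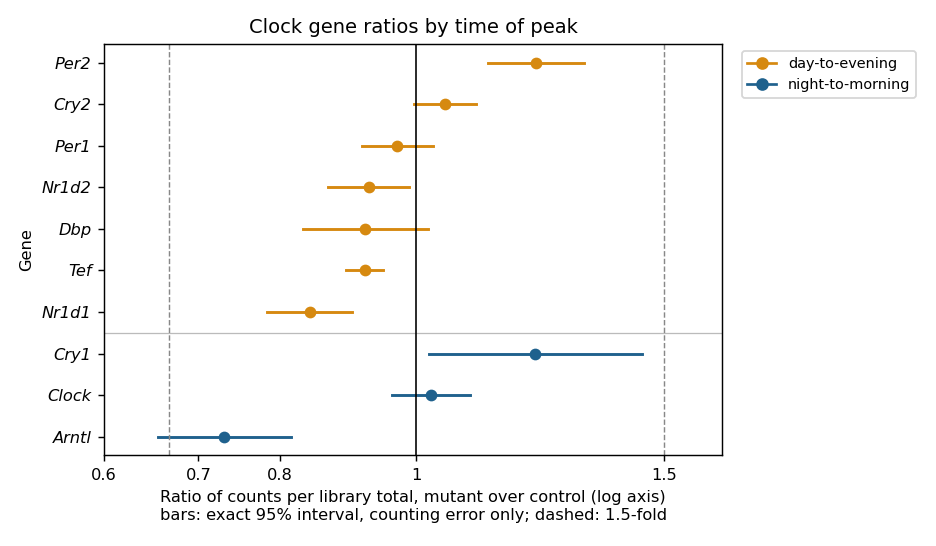
Ratio of counts per library total, mutant over control, on a log axis for the 10 clock genes in their day-to-evening and night-to-morning groups. Points are ratios, bars the exact 95% counting interval, and dashed lines mark 1.5-fold. Both groups hold genes on either side of 1, from 0.840 to 1.22 in the day-to-evening group and from 0.731 to 1.21 in the night-to-morning group.

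Morning-phase and evening-phase transcripts were compared to see whether they went opposite ways between the libraries, and their ratios overlapped. The 7 day-to-evening genes had a median log2 ratio of -0.11 and ran from -0.24 (*Nr1d1*) to 0.26 (*Per2*). Of these 7 genes, 5 had ratios below 1, where the median ratio over all genes tested was 1.00. Intervals lay below 1 for 3 of the 7, against 17.9% of all genes tested, and above 1 for 1, against 19.7%. The 3 night-to-morning genes had a median of 0.03 and ran from -0.37 (*Arntl*) to 0.22 (*Cry1*). The day-to-evening range lies within the night-to-morning range apart from *Per2*. The night-to-morning median is the value of *Clock*, and it depends on a single gene: without *Cry1* the median was -0.17.

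**Figure D3:**
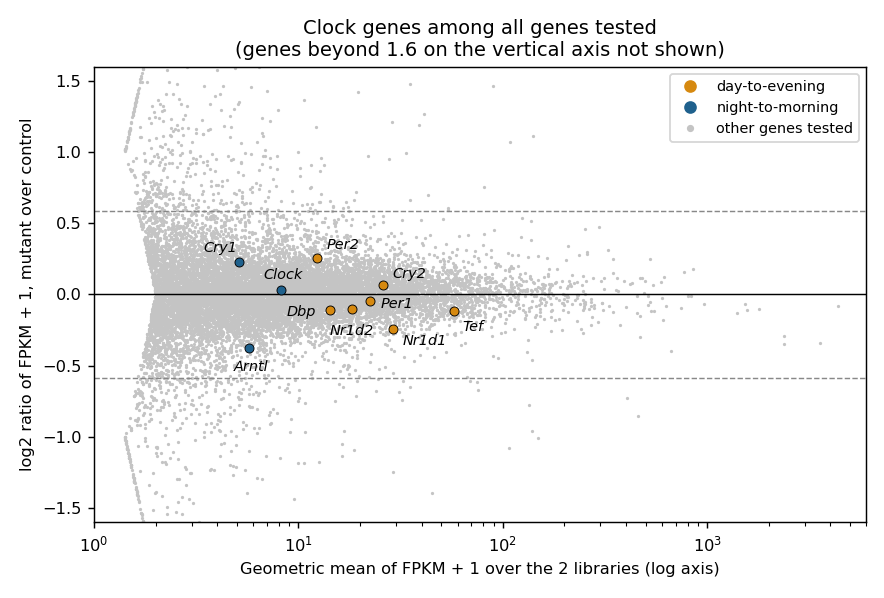
Mutant-over-control log2 ratio of FPKM + 1 against the geometric mean of FPKM + 1 on a log axis, for the clock genes (coloured by group) and all other genes tested (grey). Dashed lines mark 1.5-fold. The 10 clock genes lie between -0.37 and 0.26, inside the cloud of genes of similar level.

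The order of the levels was nearly the same in both libraries. In the control library FPKM fell from *Tef* (58.8) through *Nr1d1*, *Cry2*, *Per1*, *Nr1d2*, *Dbp*, *Per2*, *Clock* and *Arntl* (5.49) to *Cry1* (3.76), and each neighbour in this order differed from the next by more than counting error. In the mutant library *Arntl* and *Cry1* changed places at the foot of the order, with *Cry1* at 4.56 and *Arntl* at 4.01. There, 3 pairs of neighbours no longer differed beyond counting error. They were *Nr1d1* and *Cry2* (ratio of levels 1.01, CI 0.945 to 1.07), *Dbp* and *Per2* (1.01, CI 0.924 to 1.11), and *Cry1* and *Arntl* (1.14, CI 0.984 to 1.31).

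Ratios between clock transcripts within a library do not depend on the library total. *Per2* stood at 1.88 times the FPKM of *Arntl* in the control library and 3.12 times in the mutant library, a ratio of ratios of 1.66 (CI 1.45 to 1.9). *Cry1*, chosen for this after its values were seen, stood at 0.685 and 1.14 times *Arntl*, also a ratio of ratios of 1.66 (CI 1.35 to 2.04). *Cry1* was thus below *Arntl* in the control library and not separated from it by more than counting error in the mutant library. For *Per1* the ratio of ratios was 1.33 (CI 1.17 to 1.5), for *Nr1d2* 1.27 (1.11 to 1.44) and for *Dbp* 1.26 (1.08 to 1.46). *Nr1d1*, at 5.59 and 6.43 times the FPKM of *Arntl*, had the ratio of ratios closest to 1, 1.15 (CI 1.01 to 1.31). All of these share the counts of *Arntl*, and since it had the lowest ratio of the 10 genes, any of the others divided by it had to give a ratio of ratios above 1. Against *Nr1d1* in place of *Arntl*, also chosen afterwards, *Per2* stood at 0.336 and 0.486, a ratio of ratios of 1.45 (CI 1.30 to 1.61).

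**Figure D4:**
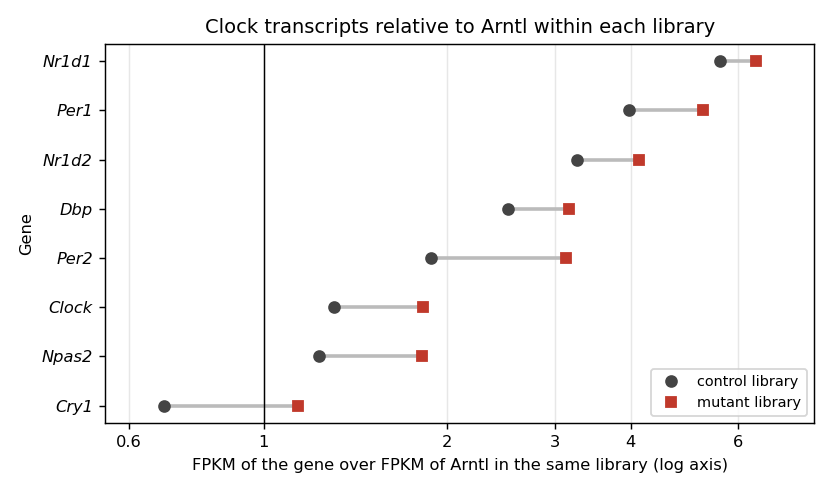
FPKM of 7 clock genes and of *Npas2* divided by FPKM of *Arntl* in the same library, on a log axis, for the control library (grey circles) and the mutant library (red squares). *Cry1* lies below 1 in the control library (0.685) and above 1 in the mutant library (1.14), and every gene shown lies farther right in the mutant library, as it must because *Arntl* had the lowest ratio.

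Of 24 other genes of the clock, 22 reached 1 FPKM in either library, none was past 1.5-fold in either direction, and their median log2 ratio was -0.01. Counting intervals lay above 1 for 8 of the 22, against 19.7% of all genes tested, below 1 for 7, against 17.9%, and included 1 for 7. Over these and the 10 clock genes together, 15 ratios were above 1 and 17 below. The genes under the minimum were *Fbxl21*, with 82 counts in each library, and *Timeless*, with 99 and 77.

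Among the other activators, *Arntl2*, the paralog of *Arntl*, was lower in the mutant library, with 360 and 208 counts, FPKM values of 3.25 and 1.93. Its ratio of counts was 0.595 (CI 0.499 to 0.707), which is past 1.5-fold without a pseudocount, while its log2 ratio of FPKM + 1 was -0.54. *Npas2*, which can take the place of *Clock* in the forebrain, had 629 and 661 counts and a ratio of 1.08 (CI 0.968 to 1.21). Both *Arntl* paralogs thus had intervals below 1. Their partners *Clock* and *Npas2* had intervals that include 1, so no direction is shown for them.

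Of the 5 other repressor genes, 4 had ratios below 1, where the median ratio over all genes tested was 1.00. *Per3*, the remaining period gene, had 1304 and 1405 counts and a ratio of 1.11 (CI 1.03 to 1.20), the same side of 1 as *Per2*. The genes *Bhlhe40* and *Bhlhe41*, whose products DEC1 and DEC2 bind E-boxes, had log2 ratios of -0.09 and -0.13, and *Cipc*, an inhibitor of CLOCK, -0.16. The interval lay below 1 for these 3 of the 5 genes, against 17.9% of all genes tested. *Ciart*, which encodes a further repressor of CLOCK and BMAL1, had 207 and 167 counts and a ratio of 0.830 (CI 0.673 to 1.02).

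*Rora* and *Rorb* encode receptors that activate *Arntl* through its ROR elements, and their ratios lay on opposite sides of 1. *Rora* had 784 and 844 counts and a ratio of 1.11, with an interval just above 1 (CI 1.004 to 1.22). *Rorb* had 294 and 249 counts and a ratio of 0.872, with an interval that included 1 (CI 0.733 to 1.04). *Nfil3*, which encodes the repressor E4BP4 that competes with DBP and TEF for D-boxes, had 208 and 276 counts and a ratio of 1.37 (CI 1.14 to 1.64). *Hlf*, the third PAR bZIP gene, had 2760 and 2641 counts and a ratio of 0.985 (CI 0.933 to 1.04). *Nfil3* thus lay above 1 and the PAR bZIP genes *Dbp*, *Tef* and *Hlf* below it, but *Dbp* and *Hlf* were within counting error of 1.

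**Figure D5:**
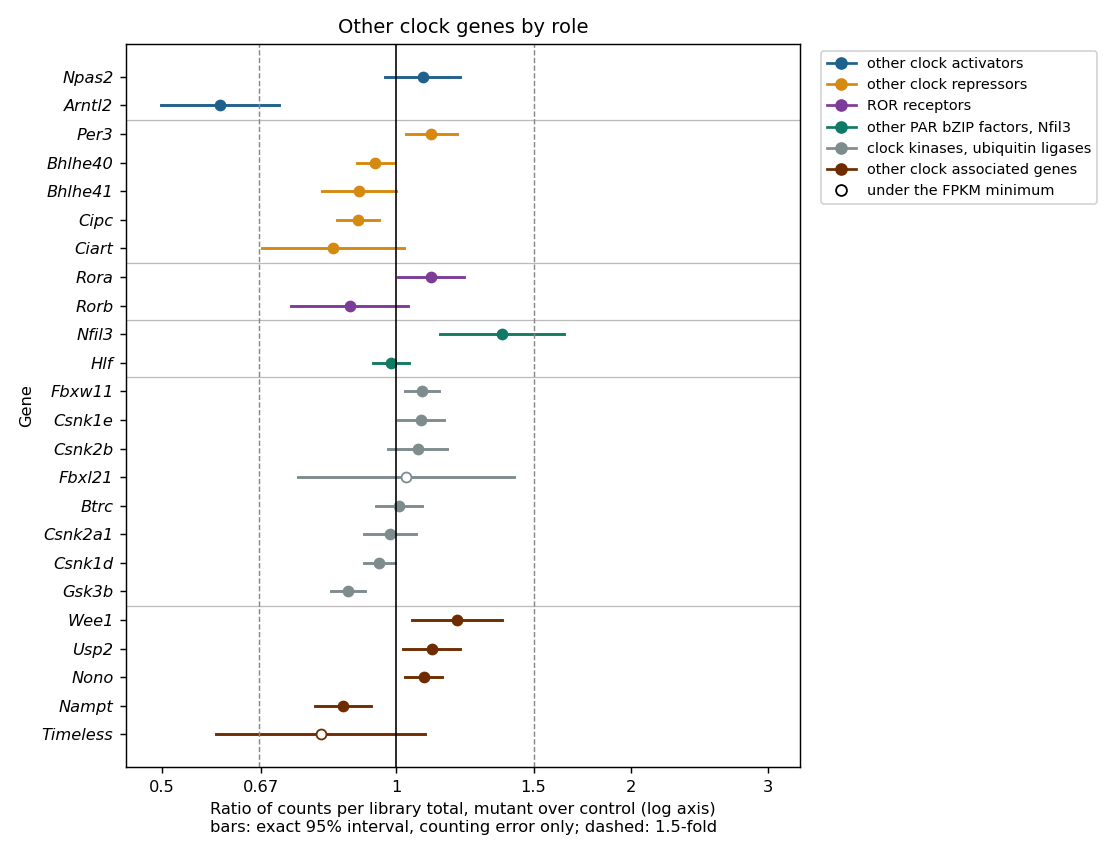
Ratio of counts per library total, mutant over control, on a log axis for 24 other clock genes grouped by role, with exact 95% counting intervals and dashed lines at 1.5-fold. Open points are genes under the FPKM minimum. *Arntl2* (0.595) lies lowest and *Nfil3* (1.37) highest, and the 7 kinase and ubiquitin ligase genes tested have log2 ratios between -0.19 and 0.11.

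Kinases and ubiquitin ligases set how long PER and CRY proteins last, and none of their genes tested was past 1.5-fold. Of 7 tested, log2 ratios ran from -0.19 for *Gsk3b*, a kinase gene with 3446 and 2902 counts, to 0.11 for *Fbxw11*, a ligase gene with 2998 and 3140. Counting intervals lay above 1 for 2 of the 7 (*Fbxw11* and *Csnk1e*), against 19.7% of all genes tested. They lay below 1 for 2 (*Gsk3b* and *Csnk1d*), against 17.9%, and included 1 for 3. The casein kinase genes *Csnk1d* and *Csnk1e*, whose products phosphorylate PER proteins, had log2 ratios of -0.07 and 0.10. *Wee1*, a cell cycle kinase gene driven by the clock in liver, had 415 and 482 counts and a ratio of 1.20 (CI 1.05 to 1.37). *Nampt*, an enzyme gene of NAD synthesis and also a clock target in liver, went the other way with 1261 and 1047 counts (ratio 0.854, CI 0.787 to 0.928). *Usp2*, a deubiquitinase gene with a strong daily rhythm, had a log2 ratio of 0.14, and *Nono*, a partner of PER proteins, 0.11.

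Larger differences than that of *Arntl* were found among genes that respond to inputs of the clock. Of 15 immediate early genes tested, 7 were past 1.5-fold lower, against 3.16% of all genes tested, and none was past it higher, against 3.64%, with a median log2 ratio of -0.52. *Btg2* had 784 and 248 counts (log2 ratio -1.44), *Dusp1* 969 and 379 (-1.18) and *Fos* 599 and 324 (-0.77). *Egr4* and *Ier2* were both at -0.68, *Arc* at -0.67 and *Junb* at -0.65, while *Per1*, which shares their induction by activity, was at -0.04. *Nr4a2*, named after its value was seen, was the only one of the 15 with a ratio above 1, at 1.27 (CI 1.18 to 1.36). *Sik1*, a kinase gene of the CREB pathway that limits the light response of the clock in mice, had 475 and 296 counts and a ratio of 0.641 (CI 0.553 to 0.743). Of 10 glucocorticoid receptor and target genes, 5 had intervals above 1, against 19.7% of all genes tested, and 2 below 1, against 17.9%. The intervals of 3 targets included 1, those of *Fkbp5*, *Errfi1* and *Zbtb16* (ratios 1.05, 1.06 and 0.996). The target *Sgk1* was the only one of the 10 past 1.5-fold higher, against 3.64% of all genes tested, with 2561 and 3998 counts (log2 ratio 0.66). *Plin4*, *Cdkn1a* and *Sult1a1* were at 0.57, 0.55 and 0.28. Both receptor genes lay below 1, *Nr3c2* at 0.828 (CI 0.787 to 0.872) and *Nr3c1* at 0.915 (CI 0.848 to 0.986). *Per1*, a target of the same receptor, was within counting error of 1. A link between neuronal activity or glucocorticoids and the clock gene values was not tested. *Cirbp* and *Rbm3*, RNA-binding protein genes that follow the daily cycle of body temperature, had ratios of 0.916 (CI 0.833 to 1.01) and 0.947 (0.866 to 1.04). All 9 heat shock and chaperone genes had ratios above 1, where the median ratio over all genes tested was 1.00. The interval lay above 1 for 8 of them, against 19.7% of all genes tested, and included 1 for *Hspa1a* (ratio 1.05, CI 0.855 to 1.29). The 9 genes were led by *Hspa5*, which encodes a chaperone of the endoplasmic reticulum (log2 ratio 0.76), and *Hspb1* (0.63). These were the only 2 of the 9 past 1.5-fold, against 3.64% of all genes tested.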

How the data were processed

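RNA-seq of 2 hippocampal samples, 1 per genotype, was analysed. The authors deposited raw counts per gene and FPKM in a single table. Per the labels' processing notes, reads were handled with HISAT2 2.0.1, HTSeq 0.6.1, cutadapt 1.9.1 and DESeq2 on build mm9 (no order given), but the coordinates of all 10 clock genes equal those of GENCODE M21 (GRCm38), which is used here. The deposited FPKM equals the count per kilobase of exonic length (a length in bases, deposited as other data) and per library total (scaled by 1e6), within 0.005. Of 241 rows that share a symbol with another, the row with more counts was kept. The log2 ratio of FPKM + 1 was taken where either library reached 1 FPKM, and a gene past 1.5-fold was called. Ratios of library-scaled counts were given exact conditional 95% intervals, and ratios of ratios those of the conditional odds ratio. Intervals cover counting error only. Reads without molecular identifiers are not independent molecules.

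The clock genes and the gene lists were chosen with earlier results of these data known, and the motifs after the windows had been seen. The rule for named genes took the 10 clock genes and, of other lists, members past 1.5-fold and up to 4 in each with the largest ratios of counts among genes with at least 100 counts. Any further gene was picked with its values in view. Alternatives were the pseudocount, the scaling (TMM of edgeR 4.0.16, median-of-ratios size factors, a total without mitochondrial and choroid plexus genes), the filter, the fold and the make-up of the groups. Some clock genes are not reported here. Steps were tested on simulated data. Python 3.11.15, numpy 2.4.6, scipy 1.17.1 and pandas 2.3.3 were used.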

Additional observations from a re-analysis of the deposited data

How the results depend on the processing

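With 1 library per genotype no replicate could be left out, and the counting interval is the only error. No paired analysis was possible because each genotype has a single library. The sign of all 10 clock gene ratios held in 79 alternative values, and none moved by more than its counting error. Much of this was fixed in advance. The filter cannot change the ratio of a gene, and each scaling shifted all genes by nearly the same log2 amount, the largest being -0.011. *Arntl* ran from -0.45 to -0.37 and *Per2* from 0.25 to 0.28 on the log2 scale, and the day-to-evening median from -0.12 to -0.10. The night-to-morning median of 0.03 became -0.17 without *Cry1*, and also with a minimum of 5 FPKM, which leaves *Cry1* out. No clock gene was past 1.5-fold under any alternative. At a lower threshold, 0.32 on the log2 scale, 1 clock gene, *Arntl*, was past it lower and none higher, with 1351 genes of all genes tested higher and 1095 lower. Over all genes, 538 were past 1.5-fold higher and 467 lower. A pseudocount of 0.1 gave 928 and 806, and a minimum of 5 FPKM gave 167 and 126. For ratios of counts with no pseudocount over genes with at least 100 counts, chosen after seeing the data, the clock genes again had none past 1.5-fold.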

Other observations

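The deposited table annotates 71 genes to Gene Ontology terms of circadian rhythm or rhythmic process, 9 of the 10 clock genes among them. Of the 45 that reached 1 FPKM in either library, 44 were within 1.5-fold, and the median log2 ratio was -0.01. The exception was *Sftpc*, a lung surfactant protein gene, with 21 control and 5 mutant counts.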
